A study of Mus musculus with 6 samples.

Results

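The 9 genes described here, Cdkn1a, Cdkn1b, Cdkn1c, Cdkn2d, Btg1, Btg2, Rbl2, Lrig1 and Nfix, hold back cell division or mark resting cells. They were picked by symbol, and all 9 were found among the 32285 genes of the count tables. Single brain cells of mice aged 8 to 12 weeks, from the cortex and subventricular zone, were sorted and their RNA counted in 6 libraries. The group labelled ECiKO (genotype Cx43ECiKO, titled Vecad) and the group labelled GlastiKO (genotype Cx43GlastiKO, titled Glast) were each compared with a control group (genotype Cx43flox/flox). Each group had 2 libraries, called biological replicates in the labels. The p-values of group comparisons below rest on the spread between libraries of the same group, which also differed in cell make-up. Those of class comparisons, with the library as a block, rest on how class differences vary between libraries. Neuroblast and choroid plexus sums came from ECiKO and GlastiKO replicate 2 only, without a control library. Cx43 is connexin 43, the gap junction protein encoded by Gja1. By their names, the deletion was directed at endothelial cells in ECiKO mice and at Glast-positive cells in GlastiKO mice. The Cre line, the inducer and the time since induction are not given in the sources used here.

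Whether a cell divides is settled in large part in the first gap phase of the cell cycle, where cyclins and their kinases inactivate the retinoblastoma family and free the E2F factors. Cdkn1a, Cdkn1b and Cdkn1c encode kinase inhibitors of the Cip/Kip family, and Cdkn2d encodes one of the INK4 family, which binds the kinases Cdk4 and Cdk6. Btg1 and Btg2 encode antiproliferative proteins that recruit the machinery shortening the poly(A) tails of mRNAs, and Btg2 is also an immediate early gene and a p53 target. Rbl2 encodes the retinoblastoma relative found with E2F4 in resting cells, Lrig1 a membrane protein that lowers signalling of the EGF receptor family, and Nfix a transcription factor of the nuclear factor I family. In the adult subventricular zone neural stem cells are astroglia-like and mostly quiescent, and they give rise to dividing progenitors and then to neuroblasts.

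The labels call the sorted cells endothelial cells and neural stem or progenitor cells. Barcodes were assigned to classes by marker genes that include none of the 9 members. Endothelial barcodes made up 387 of 396 assigned barcodes in ECiKO replicate 1, 447 of 488 in GlastiKO replicate 1 and 712 of 751 in control replicate 1. The libraries numbered 2 held mostly other cells: 21, 65 and 46 endothelial barcodes, 156, 410 and 408 astroglial barcodes, and 1951, 603 and 447 oligodendrocyte barcodes, in ECiKO, GlastiKO and control. Neuroblast or progenitor barcodes numbered 75 in ECiKO replicate 2, 32 in GlastiKO replicate 2 and 6 in control replicate 2, so that this class was a small part of every library. The libraries held 1735247 to 14859187 UMIs (unique molecules), and the median assigned barcode held between 793 UMIs in ECiKO replicate 2 and 10894.5 UMIs in GlastiKO replicate 2. Any pair of libraries shared at most 1 barcode sequence. Gja1 was not lower in the knockout libraries. In endothelial sums it was at 222 and 209 CPM (UMIs of the gene scaled to 1000000 UMIs of the class) in the libraries labelled ECiKO, at 138 and 132 CPM in those labelled GlastiKO and at 90.7 and 109 CPM in the control libraries. In astroglial sums it was at 2599 CPM in the library labelled ECiKO replicate 2, 2537 CPM in that labelled GlastiKO replicate 2 and 2553 CPM in control replicate 2. The count of the 3′ end of an mRNA need not fall when another part of the gene is deleted, and the deleted part is not given in the sources used here, so group names below follow the labels.

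The members lie on chromosomes 1, 6, 7, 8, 9, 10 and 17 of the mouse genome (build mm10, annotation GENCODE M21) and all are protein-coding genes. Cdkn1a lies at chr17:29090976-29100727 on the plus strand, Cdkn1b at chr6:134920401-134925513 (plus), Cdkn1c at chr7:143458339-143461050 (minus) and Cdkn2d at chr9:21288410-21291407 (minus). Btg1 lies at chr10:96617006-96622809 (plus), Btg2 at chr1:134075170-134079120 (minus), Rbl2 at chr8:91070057-91123844 (plus), Lrig1 at chr6:94604529-94700158 (minus) and Nfix at chr8:84699876-84800344 (minus). Annotated exons on the opposite strand overlap those of Rbl2 (Aktip, 2982 bases, and Gm45464, 958 bases), Cdkn1c (Gm44732, 882 bases), Cdkn1a (AC167363.2, 273 bases), Nfix (G430095P16Rik, 260 bases, and Lyl1, 4 bases), and Lrig1 (Slc25a26, 144 bases). Whether reads were counted by strand is not given in the sources used here, and without strand such pairs cannot be told apart.

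Btg2, Btg1 and Cdkn1a were higher in endothelial barcodes with a high share of immediate early genes, and their promoter windows are shown for that reason, as the 250 bases before a transcription start in RefSeq (build GRCm38.p6). The Btg2 window, chr1:134079156-134079405 on the minus strand, holds a cyclic AMP response element (TGACGTCA, in capitals), which 508 of 32817 windows of the same length hold on either strand (1.55%).
Btg2: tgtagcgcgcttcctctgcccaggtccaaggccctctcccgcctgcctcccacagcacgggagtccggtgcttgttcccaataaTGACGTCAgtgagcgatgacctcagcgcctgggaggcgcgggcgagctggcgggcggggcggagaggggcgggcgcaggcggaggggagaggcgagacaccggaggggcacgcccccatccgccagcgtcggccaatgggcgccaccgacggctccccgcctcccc
The Btg1 window, chr10:96616751-96617000 on the plus strand, holds a TATA box (TATAAA, in capitals), present in 2493 windows (7.60%).
Btg1: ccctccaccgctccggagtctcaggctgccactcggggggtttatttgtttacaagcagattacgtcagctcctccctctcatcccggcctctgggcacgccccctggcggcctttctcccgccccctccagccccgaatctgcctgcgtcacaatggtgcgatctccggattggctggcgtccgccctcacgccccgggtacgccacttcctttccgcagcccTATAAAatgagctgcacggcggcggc
The window at the upstream start of Cdkn1a, chr17:29090729-29090978 on the plus strand, holds a p53 response element at chr17:29090928-29090947 (in capitals), matched over 20 bases with at most 1 mismatch, which 25 windows hold (0.0762%).
Cdkn1a: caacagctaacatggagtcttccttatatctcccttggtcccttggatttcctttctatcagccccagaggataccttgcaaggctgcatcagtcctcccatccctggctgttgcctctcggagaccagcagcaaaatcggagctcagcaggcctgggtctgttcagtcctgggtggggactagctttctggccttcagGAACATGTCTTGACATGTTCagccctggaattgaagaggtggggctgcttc
The GC box (GGGCGG, either strand) was present 3 times in the Btg2 window and 2 times in the Btg1 window, and 10738 windows hold it (32.7%). A 2nd Cdkn1a window, chr17:29093519-29093768 on the plus strand, is not shown and holds 2 GC boxes and 0 p53 response elements. These matches describe letters, not binding. Of the members, 8 had a RefSeq window.

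The members did not share a pattern across cell classes. Counts were summed per library and class where a library had at least 20 barcodes of the class, and class sums of the same libraries were compared with edgeR's quasi-likelihood test, adjusted over 9880 genes by Benjamini-Hochberg at 0.05. Against astroglial sums, 3 of 9 members were higher and 2 lower in endothelial sums, where 45.3% of all genes passed. In oligodendrocyte sums 5 of 9 were higher and 2 lower (69.9% of all genes passed), and in neuroblast sums 7 were higher and 1 lower (52.0%). In choroid plexus sums 1 was higher and 3 lower (59.7%). In mural sums, compared with endothelial sums, 4 were higher and 2 lower (35.8%). The member counts of the endothelial and oligodendrocyte comparisons lay near these backgrounds, that of the choroid plexus comparison below its background, and those of the neuroblast and mural comparisons above theirs. The median log2 difference of the members was 2.20 for neuroblast against astroglial sums, beside -0.30 for all genes, and 0.41 for endothelial against astroglial sums, beside -0.19. It was 0.49 for oligodendrocyte against astroglial sums (all genes 0.00), -0.29 for choroid plexus against astroglial sums (all genes -0.37) and 0.22 for mural against endothelial sums (all genes -0.09).

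**Figure D1:**
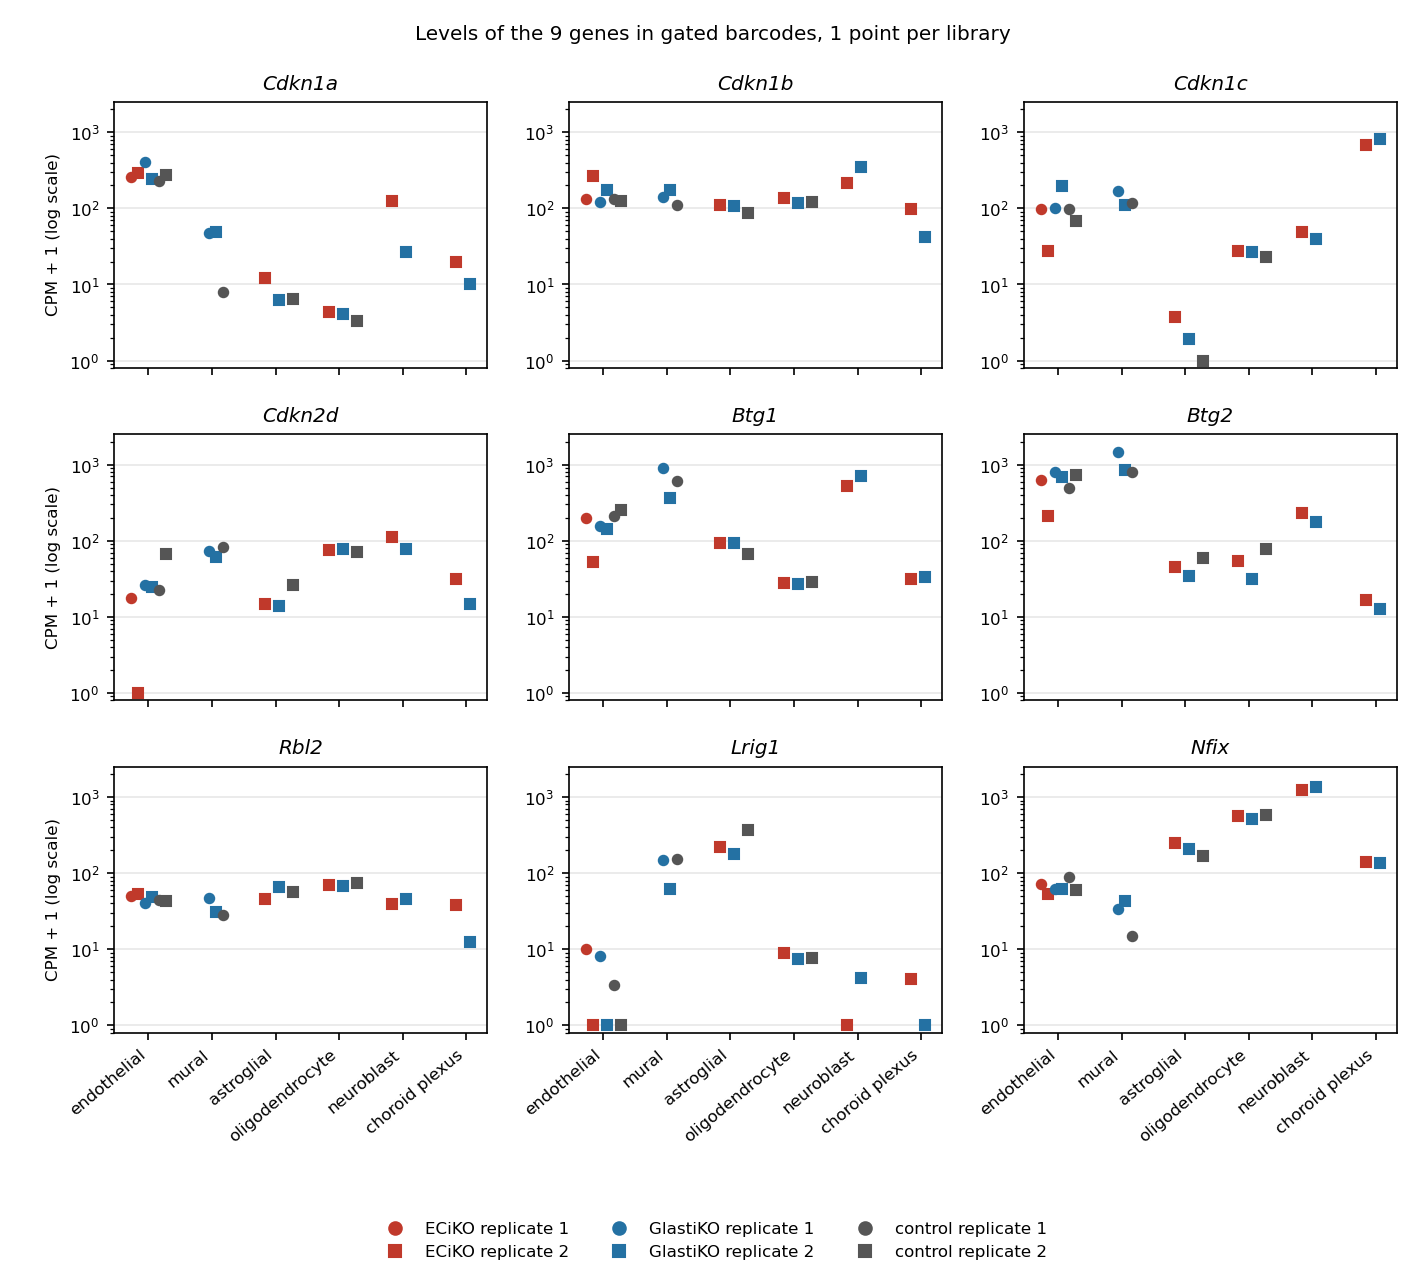
CPM (plus 1, log axis) of each member per cell class and library; red points are ECiKO, blue GlastiKO and grey control libraries, circles replicate 1 and squares replicate 2. Cdkn1a is highest in endothelial sums (229 to 399.8 CPM), Cdkn1c in choroid plexus sums (674 and 825 CPM), Lrig1 in astroglial sums (179.5 to 369 CPM) and Nfix in neuroblast sums (1244 and 1343 CPM).

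Cdkn1a, which stops the cycle downstream of p53 and other signals, was the endothelial member of the Cip/Kip family. Its level in endothelial sums was 260.4 and 288 CPM in ECiKO, 399.8 and 246 CPM in GlastiKO and 229 and 276 CPM in control libraries (283 ± 61.0 CPM, SD, n = 6). Astroglial sums had 11.1, 5.18 and 5.44 CPM in ECiKO, GlastiKO and control replicate 2, and oligodendrocyte sums 3.38, 3.08 and 2.30 CPM. Every endothelial value lay above every value of another class. Within the same library the endothelial level was 25.9-fold the astroglial level in ECiKO replicate 2 (95% interval 7.66 to 111), 47.4-fold in GlastiKO replicate 2 (24.4 to 101) and 50.7-fold in control replicate 2 (24.4 to 115); all intervals of this kind cover counting error only. The fitted log2 difference between endothelial and astroglial sums was 5.10 ± 0.354 (SE; edgeR adjusted p = 5.92e-18). Mural sums, from the contractile cells around vessels, had 46.6 and 48.5 CPM in GlastiKO and 6.88 CPM in control replicate 1, and mural levels were lower than endothelial ones (log2 difference -3.04 ± 0.348, edgeR adjusted p = 2.17e-10). Of the 8 mural UMIs in GlastiKO replicate 2, 7 came from 1 barcode. The endothelial markers summed to 619 to 1706 CPM in mural sums, against 24973 to 30631 CPM in endothelial sums. After each barcode was thinned to 500 UMIs, 7.86% to 15.5% of endothelial barcodes held a Cdkn1a UMI (unthinned 19.05% to 53.7%), against 0.112% to 0.134% of oligodendrocyte barcodes (unthinned 0.513% to 2.68%; median depth 774 to 17572 UMIs, against 1053 to 3379.5 for endothelial barcodes).

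Cdkn1a in neuroblast sums was 124 CPM in ECiKO replicate 2 and 25.9 CPM in GlastiKO replicate 2, both above every astroglial value, and the log2 difference from astroglial sums was 2.9997 ± 0.493 (edgeR adjusted p = 9.67e-07). These levels rest on 26 and 8 UMIs from few barcodes. Of them, 23 came from 8 barcodes in ECiKO replicate 2 and 7 from 2 barcodes in GlastiKO replicate 2, all called cycling by the split described below. Of 12 endothelial markers, 10 and 9 had no UMI in these neuroblast sums, and the summed level of the list was 19.1 and 19.4 CPM.

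Cdkn1b, the Cip/Kip inhibitor usually associated with exit from the cycle in neural lineages, was the most even of the inhibitors. It measured 132 and 262 CPM in ECiKO, 122 and 175 CPM in GlastiKO and 133 and 125 CPM in control endothelial sums, and 109, 106 and 84.9 CPM in the astroglial sums of ECiKO, GlastiKO and control replicate 2. Neuroblast sums had 215 and 346 CPM in ECiKO and GlastiKO replicate 2, above the astroglial sums by 1.21 ± 0.243 (log2; edgeR adjusted p = 3.24e-05). Oligodendrocyte sums had 135, 115 and 120.1 CPM, a log2 difference of 0.53 ± 0.182 from astroglial sums (edgeR adjusted p = 0.00831) that was 0.24 with either DESeq2 (adjusted p = 0.380) or RLE scaling (adjusted p = 0.216). The call was also lost without control replicate 2 (0.45, edgeR adjusted p = 0.0997) or without ECiKO replicate 2 (0.42, 0.0586). The ranges of neuroblast, endothelial, mural and oligodendrocyte sums overlapped with the next in that order. Endothelial and mural levels differed by 0.01 on the log2 scale (edgeR adjusted p = 1).

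Cdkn1c, the imprinted Cip/Kip gene, stood out in the choroid plexus, the secretory epithelium of the ventricles. It was at 674 CPM in ECiKO replicate 2 and 825 CPM in GlastiKO replicate 2 there, from 218 and 357 UMIs, against 1 and 2 UMIs in the astroglial sums of the same libraries. The ratios, 242 (43.0 to 9604) and 876 (241 to 7260), are wide because the astroglial arm held so few molecules, and the fitted log2 difference was 10.20 ± 0.410 (edgeR adjusted p = 2.36e-26). After thinning, 26.3% and 29.3% of choroid plexus barcodes held a Cdkn1c UMI (unthinned 44.0% and 95.7%), against 0% to 0.411% of astroglial barcodes (unthinned 0% to 0.641%). Median depths were 799 and 19299 UMIs in choroid plexus barcodes, against 944.5, 4545.5 and 3743 in astroglial ones. Mural sums followed at 166 and 109 CPM in GlastiKO and 117 CPM in control replicate 1. Endothelial sums had 96.7 and 26.2 CPM in ECiKO, 101 and 194 CPM in GlastiKO and 97.5 and 66.9 CPM in control libraries, a range that overlapped with the mural one. Neuroblast sums had 47.9 and 38.8 CPM, and oligodendrocyte sums 26.6, 25.4 and 21.95 CPM in ECiKO, GlastiKO and control replicate 2. Astroglial sums held 1 and 2 UMIs in ECiKO and GlastiKO replicate 2 and 0 in control replicate 2, where 3 molecules would have been 1.63 CPM. Endothelial, oligodendrocyte and neuroblast sums were all above the astroglial ones, with fitted log2 differences of 6.80 ± 0.574 (edgeR adjusted p = 6.98e-15), 5.24 ± 0.521 (6.01e-13) and 5.42 ± 0.772 (4.39e-08). With a stricter gate, which asks for 5 times as many marker UMIs as of any other class, these became 8.67, 6.56 and 6.69. Without GlastiKO replicate 2 the endothelial difference was 6.18, and without control replicate 2 the oligodendrocyte one was 4.63.

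Cdkn2d, the INK4 inhibitor known in neurons that have left the cycle, was higher in oligodendrocyte and neuroblast sums than in astroglial sums. Oligodendrocyte sums had 75.0, 77.3 and 71.0 CPM in ECiKO, GlastiKO and control replicate 2 (74.4 ± 3.17 CPM, SD, n = 3), and astroglial sums 13.9, 12.7 and 25.6 CPM. The log2 difference was 2.24 ± 0.232 (edgeR adjusted p = 2.21e-12), and the lowest oligodendrocyte value exceeded the highest astroglial one. Neuroblast sums had 110.1 and 77.7 CPM in ECiKO and GlastiKO replicate 2, a log2 difference of 2.13 ± 0.379 from astroglial sums (edgeR adjusted p = 4.28e-06). Endothelial sums had 16.5 and 0 CPM in ECiKO, 25.2 and 23.6 CPM in GlastiKO and 21.5 and 66.9 CPM in control libraries; the sum at 0 held only 38226 UMIs, so that 3 molecules would have been 78.5 CPM. Mural sums had 73.2 and 60.6 CPM in GlastiKO and 82.5 CPM in control replicate 1 and were above endothelial sums by 1.53 ± 0.397 (log2; edgeR adjusted p = 0.00161).

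Btg1 was highest in mural and neuroblast sums. Mural sums had 898 and 364 CPM in GlastiKO and 605 CPM in control replicate 1, and neuroblast sums 517 and 705 CPM in ECiKO and GlastiKO replicate 2. Endothelial sums had 197 and 52.3 CPM in ECiKO, 156 and 142 CPM in GlastiKO and 209.6 and 251 CPM in control libraries, all below the lowest mural value. Mural levels were above endothelial ones by 1.78 ± 0.221 (log2; edgeR adjusted p = 2.11e-09), and neuroblast levels above astroglial ones by 2.72 ± 0.254 (edgeR adjusted p = 3.24e-13). Oligodendrocyte sums had 26.6, 25.7 and 27.7 CPM and astroglial sums 91.8, 91.4 and 65.8 CPM in ECiKO, GlastiKO and control replicate 2, a log2 difference of -1.37 ± 0.223 (edgeR adjusted p = 3.17e-07). Endothelial and astroglial sums differed by 0.41 (edgeR adjusted p = 0.241), a difference that was -0.12 without control replicate 2 and passed the test at 0.99 under the stricter gate (edgeR adjusted p = 0.00184). Choroid plexus sums had 30.9 and 32.4 CPM, below astroglial ones by a log2 difference of -0.92 (edgeR adjusted p = 0.0447) that did not pass with DESeq2 (-0.87, adjusted p = 0.143).

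Btg2, the immediate early member of the family, was highest along vessels. Mural sums had 1457 and 855 CPM in GlastiKO and 812 CPM in control replicate 1. Endothelial sums had 625 and 209 CPM in ECiKO, 811 and 680.0 CPM in GlastiKO and 488 and 736 CPM in control libraries, so that every mural value lay above every endothelial one. The difference between mural and endothelial sums was 0.82 ± 0.207 (log2; edgeR adjusted p = 0.00125), and without the filters on barcodes it was 0.96 (adjusted p = 0.130). Neuroblast sums had 229.7 and 175 CPM in ECiKO and GlastiKO replicate 2. Oligodendrocyte sums had 52.8, 30.3 and 75.9 CPM and astroglial sums 44.5, 33.0 and 57.7 CPM in ECiKO, GlastiKO and control replicate 2, and these ranges overlapped (log2 difference 0.44, edgeR adjusted p = 0.112). Against astroglial sums, endothelial levels were higher by 3.46 ± 0.270 (edgeR adjusted p = 3.90e-16) and neuroblast levels by 2.20 ± 0.332 (edgeR adjusted p = 1.65e-07). The summed level of 15 immediate early genes was 11748 to 17649 CPM in mural sums, 968 to 7993 CPM in endothelial sums (968 CPM in ECiKO replicate 2), 2005 and 2463 CPM in neuroblast sums and 238 to 317 CPM in astroglial sums. Tissue was digested for 30 minutes at 37 °C before sorting, and its part in these levels was not tested.

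Rbl2 was the flattest member. Its class means ran from 69.8 ± 2.91 CPM in oligodendrocyte sums (SD, n = 3) to 24.3 ± 18.05 CPM in choroid plexus sums (n = 2), and apart from oligodendrocyte sums the range of each class overlapped with that of the next. Oligodendrocyte sums had 68.5, 67.9 and 73.2 CPM and astroglial sums 44.5, 65.0 and 55.5 CPM in ECiKO, GlastiKO and control replicate 2. The log2 difference was 0.49 ± 0.175 (edgeR adjusted p = 0.0124), but it was 0.22 with DESeq2 (adjusted p = 0.444) and 0.44 without control replicate 2 (edgeR adjusted p = 0.124). Choroid plexus sums had 37.1 and 11.6 CPM in ECiKO and GlastiKO replicate 2, a log2 difference of -0.97 from astroglial sums (edgeR adjusted p = 0.0296) that did not pass with DESeq2 (-0.89, adjusted p = 0.0801). Endothelial and astroglial sums differed by -0.77 (edgeR adjusted p = 0.0767).

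Lrig1 was the astroglial member. Astroglial sums had 223, 179.5 and 369 CPM in ECiKO, GlastiKO and control replicate 2, from 80, 381 and 678 UMIs, whereas the endothelial sums of the same 3 libraries held none. With 3 molecules as the limit per library, endothelial levels were at least 2.84-fold, 12.7-fold and 14.7-fold lower than astroglial ones in these libraries. Endothelial sums of ECiKO, GlastiKO and control replicate 1 had 9.09, 7.11 and 2.39 CPM. Oligodendrocyte sums had 8.07, 6.53 and 6.74 CPM in ECiKO, GlastiKO and control replicate 2, so that the oligodendrocyte level was 0.0363, 0.0364 and 0.0183 of the astroglial level (log2 difference -4.92 ± 0.206, edgeR adjusted p = 1.67e-27). Neuroblast sums held 0 and 1 UMI in ECiKO and GlastiKO replicate 2, at least 15.5-fold lower than astroglial sums in ECiKO replicate 2 and 0.0180 of the astroglial level in GlastiKO replicate 2 (0.000455 to 0.101). Choroid plexus sums held 1 and 0 UMI. The fitted log2 differences from astroglial sums were -7.23, -6.98 and -6.91 for endothelial, neuroblast and choroid plexus sums (edgeR adjusted p = 9.09e-19, 1.47e-13 and 2.07e-13); they depend on how counts near 0 are handled, and the endothelial one ranged from -11.77 without GlastiKO replicate 2 to -5.18 without the filters on barcodes.

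Mural sums formed the other Lrig1 class, at 146 and 60.6 CPM in GlastiKO and 151 CPM in control replicate 1, from 22, 10 and 22 UMIs. Relative to endothelial sums of the same library they were 20.6-fold higher (9.58 to 47.1), at least 4.28-fold higher and 63.4-fold higher (24.9 to 191), and the fitted log2 difference was 5.14 ± 0.446 (edgeR adjusted p = 3.55e-14). The 12 astroglial markers together had 5098 and 7799 CPM in GlastiKO and 7050 CPM in control replicate 1 in mural sums, against 30104 to 30841 CPM in astroglial sums, and 5, 6 and 9 of the 12 were at 0. The part of astroglial RNA in the mural Lrig1 level was not tested. After thinning, 3.33% to 6.19% of mural barcodes (unthinned 25.8% to 43.8%) and 8.42% to 14.4% of astroglial barcodes held a Lrig1 UMI, against 0% to 0.417% of endothelial ones (unthinned 0% to 2.58%).

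Nfix was highest in neuroblast sums. Neuroblast sums had 1244 and 1343 CPM in ECiKO and GlastiKO replicate 2. Oligodendrocyte sums had 558, 515 and 579.9 CPM and astroglial sums 248, 205 and 165 CPM in ECiKO, GlastiKO and control replicate 2. Choroid plexus sums had 139 and 134 CPM, endothelial sums 52.3 to 87.1 CPM and mural sums 13.8 to 42.5 CPM, and no class overlapped with the next in this order. Relative to astroglial sums the log2 difference was 2.40 ± 0.219 in neuroblast sums (edgeR adjusted p = 1.51e-13), 1.68 ± 0.187 in oligodendrocyte sums (2.08e-11) and -1.97 ± 0.317 in endothelial sums (6.04e-07). Mural levels were below endothelial ones by a log2 difference of -1.20 ± 0.421 (edgeR adjusted p = 0.0209), from 5, 7 and 2 mural UMIs, and without control replicate 1 it was -0.62 (adjusted p = 0.392). After thinning, 39.3% and 45.4% of neuroblast barcodes held a Nfix UMI, against 0.529% to 2.35% of mural barcodes (unthinned 66.7% and 93.8%, against 6.25% to 19.4%), with median depths of 995 and 6940 UMIs, against 4630 to 5355.

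The scale bears on small differences with oligodendrocytes. DESeq2's size factors moved the median of all genes by -0.31 (log2) in oligodendrocyte against astroglial sums, and RLE scaling by -0.26; of the called genes 39.3% and 39.9% were then higher in oligodendrocyte sums, against 49.5% with the TMM scaling used here. Under both, Cdkn1b and Rbl2 no longer passed and Cdkn1a passed as lower in oligodendrocyte sums (-1.23 and -1.15, adjusted p = 0.0427 with DESeq2 and 0.0150 with edgeR), while Cdkn1c, Cdkn2d and Nfix stayed higher and Btg1 and Lrig1 lower.

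Among endothelial barcodes, Btg2, Btg1 and Cdkn1a were higher where immediate early genes were high, and other members were less clear. Endothelial and mural barcodes of each library with at least 30 of the class were ranked by their share of UMIs from 15 immediate early genes, which include no member, and divided by rank into 3 equal groups, of which the highest was set beside the lowest as a description, without a test. Btg2 in endothelial barcodes was at 1216 CPM in the highest group, against 154 CPM in the lowest group, in ECiKO replicate 1, and at 1649 against 142 CPM in GlastiKO replicate 1. It was at 1024 against 103 CPM in control replicate 1. The ratios were 7.89 (5.83 to 10.9), 11.6 (8.87 to 15.4) and 9.95 (7.77 to 12.9), and they were 14.0 and 46.6 in the smaller GlastiKO replicate 2 and control replicate 2, the last from 1 UMI in the lowest group. Mural ratios for Btg2 were 7.55 and 18.5 in GlastiKO and 6.76 in control replicate 1.

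Btg1, whose product belongs to the same family, had ratios of 3.86 in ECiKO replicate 1, 2.69 in GlastiKO replicate 1 and 3.54 and 7.31 in control libraries among endothelial barcodes. In mural barcodes its ratios were 3.94 and 2.79 in GlastiKO and 5.66 in control replicate 1, and all these intervals lay above 1. Cdkn1a ratios in endothelial barcodes were 3.37 in ECiKO replicate 1, 2.20 and 2.85 in GlastiKO and 2.14 and 1.90 in control libraries, the last with an interval that included 1 (0.740 to 5.74). Cdkn1b ratios were 1.29 in ECiKO replicate 1, 1.07 and 1.73 in GlastiKO and 1.10 and 0.310 in control libraries, and each interval included 1. Cdkn1c lay between, with ratios of 1.68, 2.00, 3.16 and 1.40 whose lower bounds were 1.02, 1.28, 1.05 and 1.00, and 1.63 with a wide interval (0.130 to 85.3) in control replicate 2. In mural barcodes Cdkn1c ratios were 0.876 (0.320 to 2.44) and 4.06 (0.887 to 37.7) in GlastiKO and 0.180 (0.0192 to 0.846) in control replicate 1, where the highest group thus had less. Cdkn2d ratios in endothelial barcodes were 2.12 in ECiKO replicate 1, 2.15 and 1.997 in GlastiKO and 3.38 and 2.71 in control libraries, all above 1, but only the 3.38 of control replicate 1 had an interval that left out 1 (1.49 to 8.97). Rbl2 ratios ran from 0.542 to 0.688 in the 4 libraries with a value and Nfix ratios from 0.727 to 2.71, and each of these intervals included 1. Depth differed between these groups: the median endothelial barcode held 3137 to 4399 UMIs in the highest group and 1700 to 2553 UMIs in the lowest. At an equal 500 UMIs, 32.4% of barcodes in the highest group and 5.21% in the lowest group held a Btg2 UMI in control replicate 1 (unthinned 75.1% and 20.7%), and likewise 33.1% and 7.04% in ECiKO replicate 1 (unthinned 71.3% and 24.03%).

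**Figure D2:**
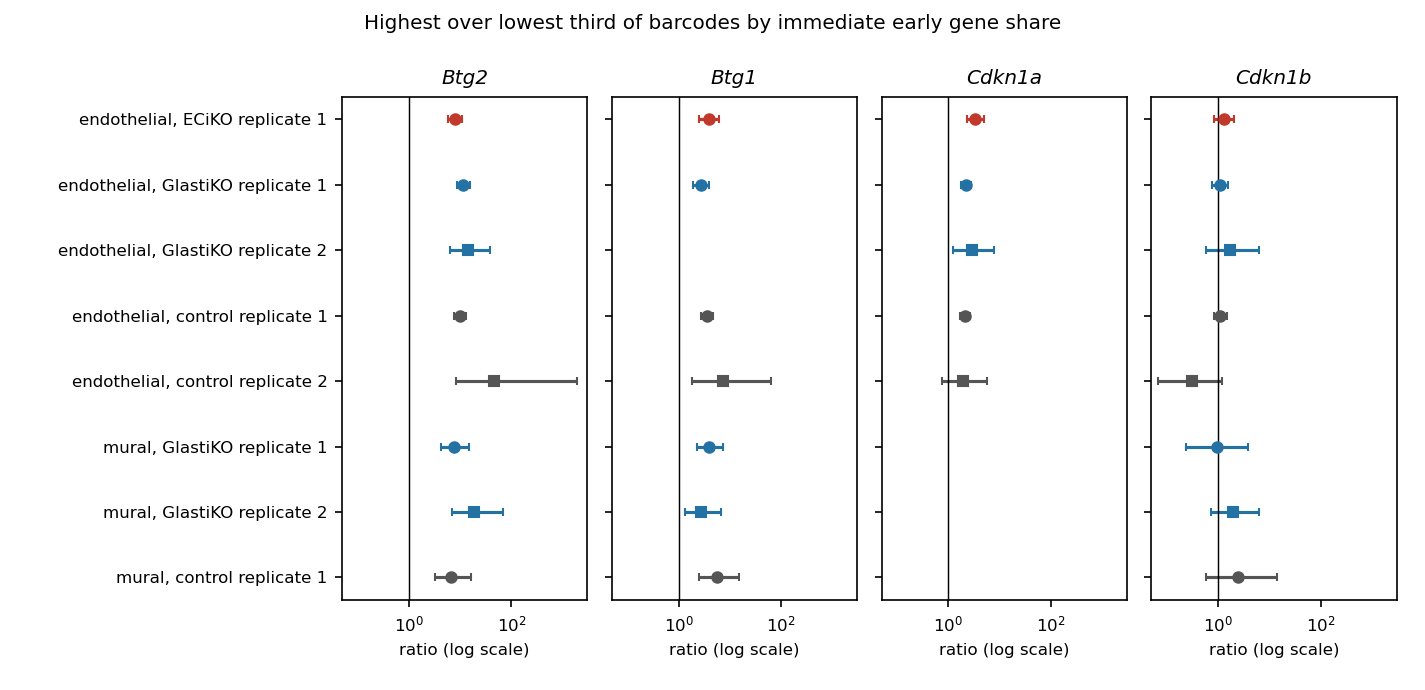
Ratio of CPM in the barcodes with the highest share of immediate early UMIs to that in those with the lowest share, each 1 of 3 equal ranked groups (log axis), with exact 95% intervals, for Btg2, Btg1, Cdkn1a and Cdkn1b in endothelial and mural barcodes of each library; a point is missing where an arm held no UMI. Btg2 ratios lie between 6.76 and 46.6, whereas Cdkn1b intervals include 1.

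Across the 19 class-by-library sums the genes most like Btg2 (Pearson r of log2 CPM among 9880 genes, a description over sums that share libraries) were Ier2 at 0.963, Apold1 at 0.950 and Junb at 0.940. Those most like Cdkn1a were Kitl (0.936), Arl15 (0.928) and Socs2 (0.918), and those most like Lrig1 were Ccdc80 (0.929), Rgs6 (0.928) and Pdgfrl (0.923). Enox1 was most like Nfix (0.946), Ppp1r7 like Cdkn2d (0.933), Gnas like Cdkn1c (0.932), Zdhhc17 like Rbl2 (0.910), Eif4ebp2 like Btg1 (0.908) and Vps72 like Cdkn1b (0.882). Among the members themselves the highest value was 0.727 between Btg1 and Btg2, followed by 0.633 between Cdkn1a and Btg2, and the lowest was -0.625 between Btg2 and Nfix.

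Btg1 was the only member that passed the test between cycling and non-cycling neural barcodes. Neuroblast or progenitor barcodes were called cycling from 3 UMIs of 15 mitotic and S-phase markers, none of them a member. There were 51 cycling and 24 non-cycling barcodes in ECiKO replicate 2, 8 and 24 in GlastiKO replicate 2, and 4 and 2 in control replicate 2, which was too few for the test. This call rests on a UMI count, and depth differed between the arms. Median cycling and non-cycling depths were 1135 and 724 UMIs in ECiKO, 22153 and 5657 in GlastiKO and 10869 and 7805.5 in control replicate 2. Non-cycling barcodes still had 344, 68.0 and 256 CPM of cycling markers, against 6915, 6806 and 6005 CPM in cycling ones. The part of depth in the call was not tested. Btg1 was at 258 CPM in cycling and 1807 CPM in non-cycling barcodes of ECiKO replicate 2, with 45 and 63 UMIs behind these levels. In GlastiKO replicate 2 the levels were 362 and 1163 CPM (64 and 154 UMIs), and in control replicate 2 they were 228 and 1025 CPM (14 and 16 UMIs). Cycling levels were below non-cycling levels in all 3 libraries, at 0.143 (0.0953 to 0.213), 0.312 (0.229 to 0.420) and 0.223 (0.101 to 0.487) of them. The fit over ECiKO and GlastiKO replicate 2 gave a log2 difference of -2.19 ± 0.263 (edgeR adjusted p = 1.61e-14), and Btg1 was the 1 member of 6 tested that passed, where 18.8% of 3101 genes passed. That fit has 1 residual degree of freedom among libraries, so its p-values rest on the spread pooled over genes. With a threshold of 6 cycling UMIs no gene of 2990 passed with edgeR (666 had an unadjusted p under 0.05), and Btg1 was at -2.04 (edgeR adjusted p = 0.0663). After thinning, 6.19% of cycling and 39.0% of non-cycling barcodes held a Btg1 UMI in ECiKO replicate 2 (unthinned 23.5% and 50%), 18.1% and 38.4% in GlastiKO replicate 2 (unthinned 87.5% and 79.2%), and 10.4% and 41.9% in control replicate 2 (unthinned 75% and 100%).

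The arms also differed in maturity. Dcx, a neuroblast gene, was at 229.7 CPM in cycling and 1205 CPM in non-cycling barcodes of ECiKO replicate 2, 436 and 1216 CPM in GlastiKO replicate 2, and 65.3 and 961 CPM in control replicate 2. Cycling and maturity therefore cannot be told apart in the Btg1 difference. The neuroblast sums described for each member mix both arms, with 51 of 75 barcodes cycling in ECiKO replicate 2 and 8 of 32 in GlastiKO replicate 2, and the part of this mix in their levels was not tested.

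**Figure D3:**
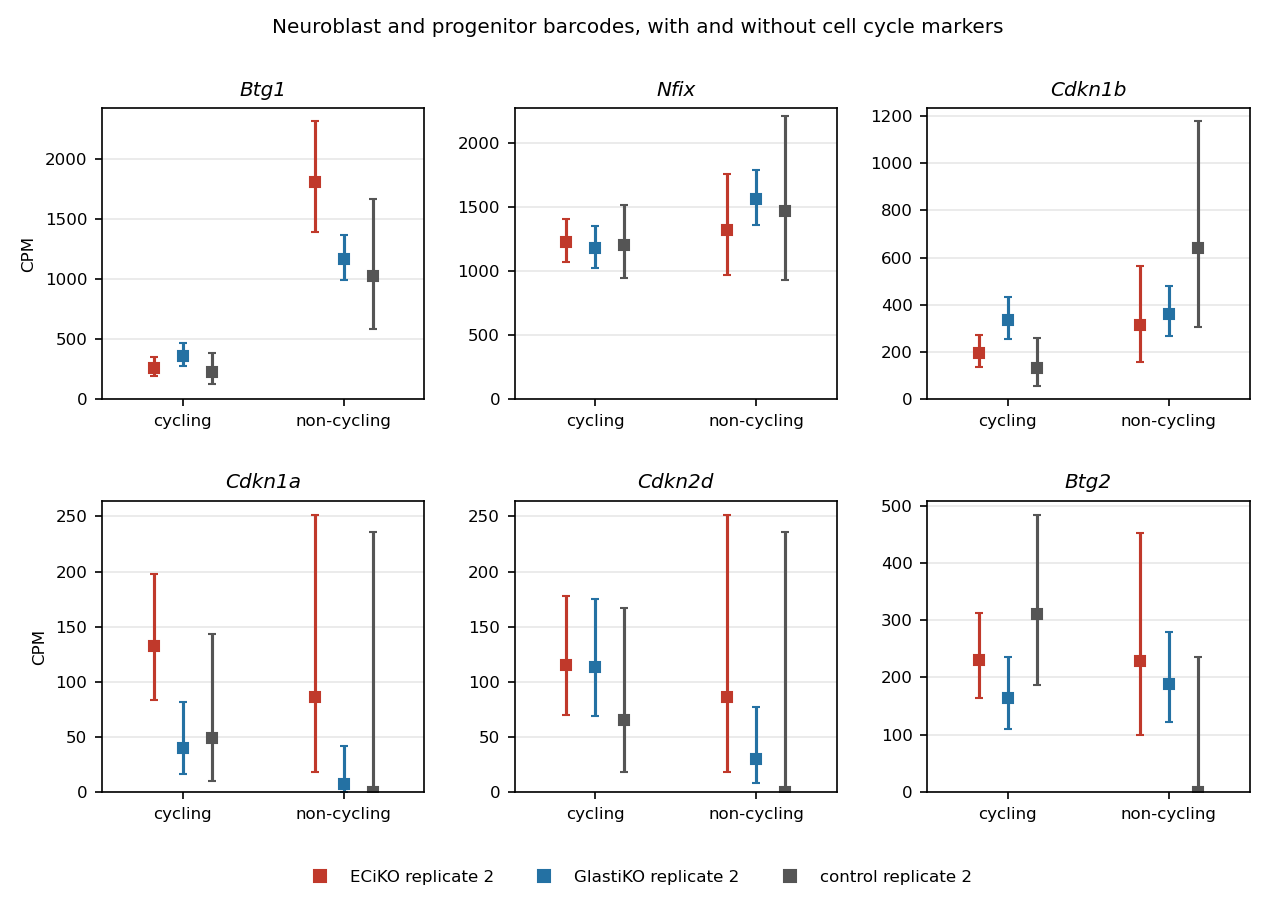
CPM of 6 members in cycling (left) and non-cycling (right) neuroblast or progenitor barcodes of ECiKO, GlastiKO and control replicate 2, with exact 95% Poisson intervals. Btg1 is at 258, 362 and 228 CPM in cycling and 1807, 1163 and 1025 CPM in non-cycling barcodes. Nfix intervals overlap in ECiKO and control replicate 2 but not in GlastiKO replicate 2.

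The inhibitors did not pass the test between these arms. Cdkn2d was at 115 CPM in cycling and 86.1 CPM in non-cycling barcodes of ECiKO replicate 2, at 113 and 30.2 CPM in GlastiKO replicate 2 and at 65.3 and 0 CPM in control replicate 2 (log2 difference 1.28 ± 0.660, edgeR adjusted p = 0.176). These levels rest on 20 and 3, 20 and 4, and 4 and 0 UMIs. The ratio was 1.33 (0.396 to 7.01) in ECiKO replicate 2 and 3.75 (1.26 to 15.1) in GlastiKO replicate 2, and in control replicate 2 the 0 allows up to 192 CPM in the non-cycling arm, so that no direction is given there. Cdkn1a was at 132 and 86.1 CPM in ECiKO replicate 2, 39.6 and 7.55 CPM in GlastiKO replicate 2 and 49.0 and 0 CPM in control replicate 2 (1.21 ± 0.854, edgeR adjusted p = 0.376). Cdkn1b had the opposite sign, at 195 and 316 CPM in ECiKO replicate 2, 334 and 362 CPM in GlastiKO replicate 2 and 130.5 and 641 CPM in control replicate 2 (-0.34 ± 0.378, edgeR adjusted p = 0.625). Its ratio in control replicate 2, which was outside the fit, was 0.204 (0.0699 to 0.573), from 8 and 10 UMIs. In ECiKO and GlastiKO replicate 2 the intervals of its ratio included 1.

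Nfix was at 1229 and 1320 CPM in cycling and non-cycling barcodes of ECiKO replicate 2, 1178 and 1563 CPM in GlastiKO replicate 2 and 1207 and 1473 CPM in control replicate 2 (-0.29 ± 0.211, edgeR adjusted p = 0.400). Its ratio was 0.753 (0.619 to 0.918) in GlastiKO replicate 2, while the intervals in ECiKO and control replicate 2 included 1. Btg2, in contrast to Btg1, was at 229.7 and 229.5 CPM in ECiKO replicate 2, 164 and 189 CPM in GlastiKO replicate 2 and 310.0 and 0 CPM in control replicate 2 (-0.13 ± 0.427, edgeR adjusted p = 0.897). Its arms overlapped within counting error in ECiKO and GlastiKO replicate 2, and in control replicate 2 they held 19 and 0 UMIs. Cdkn1c, Rbl2 and Lrig1 had too few UMIs for the fit: Rbl2 had 6 and 2, 6 and 8, and 1 and 0 UMIs in the cycling and non-cycling arms, Cdkn1c 10 and 0, 7 and 5, and 0 and 0, and Lrig1 0 and 0, 1 and 0, and 2 and 0. The median log2 difference of the 6 members tested was -0.21, beside 0.02 for all genes.

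In endothelial barcodes no member passed the test between a knockout group and the control group. All 6 libraries were fitted together with edgeR. In ECiKO against control 0 of 8 members tested passed, where 0.220% of 8643 genes passed (19 with edgeR, 129 at an unadjusted p under 0.05, 2 with DESeq2). In GlastiKO against control 0 of 8 passed as well, where 0.301% of genes passed (26, 161 at an unadjusted p under 0.05, and 2 with DESeq2). DESeq2 called 0 members in either comparison, and no member had an unadjusted p under 0.05 with edgeR. Lrig1 had too few UMIs to be tested. The median log2 difference of the members was -0.10 in ECiKO (all genes -0.03) and 0.06 in GlastiKO (all genes 0.00).

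The members nearest to a difference were all in GlastiKO. Cdkn1a, at 399.8 and 246 CPM in GlastiKO and 229 and 276 CPM in control libraries, differed by 0.52 ± 0.277 (log2; unadjusted p = 0.0625 in edgeR's test across all genes), and without GlastiKO replicate 1 by -0.013. Cdkn1c, at 101 and 194 CPM in GlastiKO and 97.5 and 66.9 CPM in control libraries, differed by 0.55 ± 0.301 (unadjusted p = 0.0681 in edgeR's test). Btg1, at 156 and 142 CPM in GlastiKO and 209.6 and 251 CPM in control libraries, differed by -0.50 ± 0.281 (unadjusted p = 0.0749 in edgeR's test). The adjusted p of all members was 0.99998 in GlastiKO and 0.9998 in ECiKO (edgeR). The groups overlapped for Cdkn1a and did not for Cdkn1c and Btg1. In ECiKO the largest difference was that of Cdkn2d, at -0.71 ± 0.515, from 16.5 and 0 CPM in ECiKO and 21.5 and 66.9 CPM in control libraries. The other members lay between -0.31 (Btg1) and 0.21 (Rbl2). ECiKO replicate 2 contributed 21 endothelial barcodes and 38226 UMIs, so its member counts ran from 0 to 11. The standard errors of the members ran from 0.274 to 0.515, so that equal levels were not shown either.

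**Figure D4:**
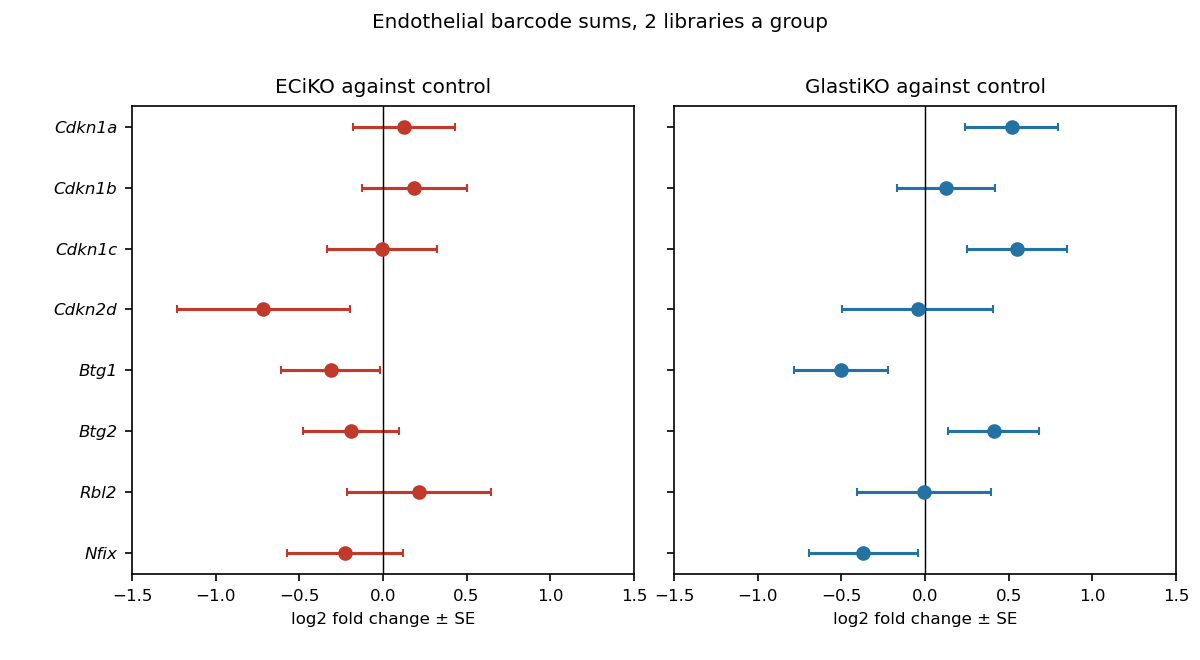
Log2 difference (± SE) of 8 members in endothelial sums, ECiKO against control and GlastiKO against control, from the edgeR fit of 6 libraries (2 per group). ECiKO values lie between -0.71 and 0.21 and GlastiKO values between -0.50 and 0.55, and none passed the test.

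Among glia, the libraries numbered 2 were the only ones with enough barcodes, so that each group had 1 library and no test was possible; ratios are given with exact counting intervals. Genes with at least 100 UMIs were counted as different from a ratio of 1.5 or its inverse. In astroglial sums, ECiKO replicate 2 against control replicate 2 had 2 of 6 counted members past that ratio, where 12.7% of 3719 genes were, and GlastiKO replicate 2 had 2 of 6, where 8.78% of 6197 genes were. In oligodendrocyte sums it was 0 of 7 members in ECiKO replicate 2, where 2.74% of genes were past the ratio, and 1 of 8 in GlastiKO replicate 2, where 2.01% were.

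Lrig1 was lower in the astroglial sums of both libraries labelled knockout. Its 223 CPM in ECiKO replicate 2 were 0.603 (0.473 to 0.762) of the 369 CPM in control replicate 2, and its 179.5 CPM in GlastiKO replicate 2 were 0.487 (0.428 to 0.553) of it. After thinning, 8.88% of astroglial barcodes in ECiKO replicate 2, 8.42% in GlastiKO replicate 2 and 14.4% in control replicate 2 held a Lrig1 UMI, whereas the unthinned shares were 25.6%, 39.3% and 56.4% at median depths of 944.5, 4545.5 and 3743 UMIs. Among barcodes with at least 2000 UMIs the levels were 253, 179 and 381 CPM in ECiKO, GlastiKO and control replicate 2. Among barcodes with a UMI of Agt or Slc6a11 they were 234, 184.0 and 379 CPM. The barcodes without either gene held 6 Lrig1 UMIs in each library, too few to order the groups. Their levels were 141 CPM (51.7 to 307) in ECiKO, 70.9 CPM (26.0 to 154) in GlastiKO and 93.9 CPM (34.5 to 204) in control replicate 2. The ECiKO value thus lay above the control value in this subset. The oligodendrocyte markers, a measure of other cells' RNA, summed to 529, 460 and 459 CPM in these astroglial sums. Gja1 itself was at 2599, 2537 and 2553 CPM in these sums, and with 1 library per group the group and the library cannot be told apart.

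**Figure D5:**
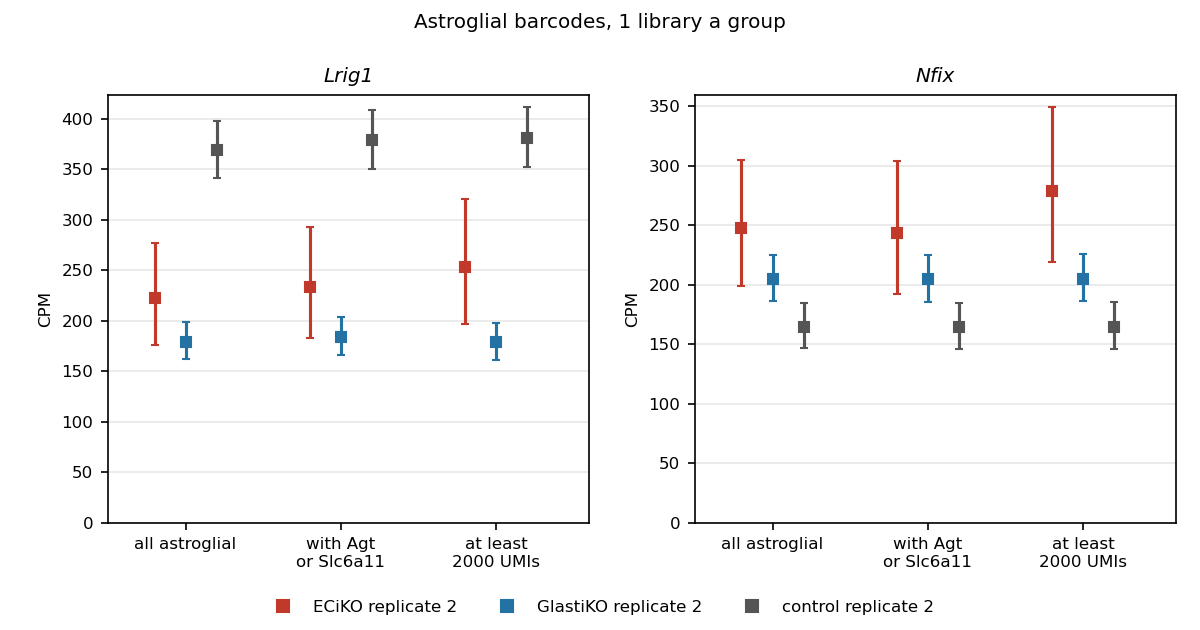
CPM of Lrig1 and Nfix with exact 95% Poisson intervals in astroglial barcodes of ECiKO, GlastiKO and control replicate 2: all barcodes, those with a UMI of Agt or Slc6a11, and those with at least 2000 UMIs. In each of the sets drawn, Lrig1 is highest in control replicate 2 (369, 379 and 381 CPM) and Nfix in ECiKO replicate 2 (248, 243 and 279 CPM). Barcodes without Agt and Slc6a11 are not drawn.

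Nfix ran the other way in astroglial sums. Its 248 CPM in ECiKO replicate 2 were 1.502 (1.17 to 1.91) times the 165 CPM in control replicate 2, and its 205 CPM in GlastiKO replicate 2 were 1.24 (1.07 to 1.44) times as high. Btg2 was at 44.5 CPM in ECiKO, 33.0 CPM in GlastiKO and 57.7 CPM in control replicate 2, at ratios of 0.772 (0.426 to 1.31) and 0.572 (0.417 to 0.781). Btg1 was at 91.8 and 91.4 CPM in ECiKO and GlastiKO replicate 2, against 65.8 CPM in control replicate 2 (1.39, 0.919 to 2.06, and 1.39, 1.10 to 1.76). Cdkn1b and Rbl2 lay between ratios of 0.802 and 1.28. Cdkn2d, with too few UMIs to be counted, had ratios of 0.544 (0.169 to 1.36) in ECiKO and 0.497 (0.298 to 0.815) in GlastiKO replicate 2. They rest on 5 and 27 UMIs, against 47 in control replicate 2. In oligodendrocyte sums Btg2 was lowest in GlastiKO replicate 2, at 30.3 CPM, and at 52.8 CPM in ECiKO replicate 2, against 75.9 CPM in control replicate 2. The ratios were 0.400 (0.347 to 0.460) in GlastiKO replicate 2 and 0.696 (0.589 to 0.820) in ECiKO replicate 2, and the summed level of the immediate early genes was 1549 and 1799 CPM in GlastiKO and ECiKO, against 2205 CPM in control replicate 2. The other counted members in oligodendrocytes had ratios from 0.888 (Nfix in GlastiKO replicate 2) to 1.21 (Cdkn1c in ECiKO replicate 2).

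Other cell cycle genes were counted in the same fits, from 9 lists chosen with results of these data known. No gene of 8 lists passed in either endothelial group comparison. The share over all genes was 0.220% in ECiKO and 0.301% in GlastiKO against control. Of 14 immediate early genes tested, Egr3 passed in GlastiKO against control (2.24 ± 0.438, edgeR adjusted p = 0.000239). In neuroblast against astroglial sums 52.0% of all genes passed. There 3 of 6 G1 cyclins and kinases were higher and none lower, a count near that share. They were Cdk6 (5.29), Ccnd2 (4.99) and Cdk4 (4.03), the kinase partners that Cdkn2d blocks and the cyclin that activates them. Of 10 pocket and E2F genes 4 were higher and 3 lower there, with E2f1 at 3.62, Tfdp1 at 2.59, Rbl1 (a relative of Rbl2) at 2.26 and E2f6 at -1.98. Cdkn2c, the INK4 relative of Cdkn2d, was higher by 4.18, and among NFI genes Nfib was higher by 1.53 and Nfia by 0.54, with Nfic at -0.79.

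In endothelial against astroglial sums, Cdkn2b, another INK4 gene, was higher by 6.17 and Btg3 by 4.199, while 0 of 7 p53 targets other than the members were higher and Phlda3 was lower (-3.43). All 14 immediate early genes tested were higher there, with a median of 5.49, where 45.3% of all genes passed (1905 higher and 2575 lower). Egfr, the receptor that Lrig1 restrains, was lower in endothelial (-10.57), oligodendrocyte (-7.61) and choroid plexus sums (-5.57) than in astroglial sums, and higher in mural than in endothelial sums (7.20). In neuroblast against astroglial sums, where Lrig1 was lower, Egfr did not pass (-0.34, edgeR adjusted p = 0.285). In oligodendrocyte against astroglial sums 69.9% of all genes passed (3420 higher and 3484 lower). There 5 of 6 G1 cyclins and kinases were lower and 1 higher, with Ccnd2 at -4.30 and Cdk6 at -2.94. The pocket and E2F genes had 6 of 10 lower and 2 higher, with Rbl1 at -3.42.

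Between cycling and non-cycling neural barcodes, Egfr (3.53 ± 0.657, edgeR adjusted p = 2.40e-06) and Ccnd2 (0.81 ± 0.161, 1.04e-05) were higher in cycling barcodes. Nfib, the relative of Nfix, was lower (-1.29 ± 0.186, edgeR adjusted p = 3.28e-10). Of 6 immediate early genes tested, 4 were lower in cycling barcodes, namely Junb (-2.78), Fos (-1.96), Ier2 (-1.42) and Jund (-1.03), beside the lower Btg1 and a Btg2 that did not pass. Among all 3101 genes tested, 18.8% passed in either direction.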

How the data were processed

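Whole-number UMI counts per gene and barcode were used as deposited by the authors, in 10x matrices of 6 libraries with 7433 barcodes and 32285 genes. Per the labels' protocols and the file headers they were made with the 10x 3′ v3.1 kit and Cell Ranger 5.0.0 on mm10; per the submitters' processing notes, Seurat 4 and another version of Cell Ranger (2.1.1) were used, and the difference is not explained in the sources used here. Per the labels' protocols, CD45-negative cells were sorted as CD31-positive Glast-negative or Glast-positive CD31-negative after collagenase and dispase. How these fractions were divided between libraries is not stated. The members, markers and gene lists were chosen with earlier results of these data known.

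Barcodes with at least 300 genes and at most 20% mitochondrial UMIs were kept, and Scrublet doublets (expected share 5%) were removed: 13 and 1 in ECiKO, 6 and 6 in GlastiKO and 19 and 4 in control libraries. A barcode took a class with at least 3 UMIs of its markers and 2 times those of any other class. Counts were summed per library and class with at least 20 barcodes. EdgeR 4.0.16 (quasi-likelihood test, TMM scaling, filterByExpr) in R 4.3.3 was used on these sums, with the library as a block between classes and no replicate block between groups, and Benjamini-Hochberg adjustment over all genes tested at 0.05. The endothelial fit had 3 residual degrees of freedom and the class fit, with 19 sums, had 8. DESeq2 1.42.0 was an alternative. The cycling comparison was planned with at least 10 barcodes an arm, which left 1 library; 5 was used instead, after the data were seen, and the choroid plexus comparison was added then too. Standard errors are the log2 difference over the square root of F. Thinning drew 500 UMIs per barcode. Intervals are exact (Poisson, Clopper-Pearson or conditional binomial, 95%), and at 0 UMIs 3 counts are taken as the limit. Python 3.11.15 with scanpy 1.11.5 and scipy 1.17.1 was used. In endothelial sums, the gene-wise differences between libraries numbered 1 and 2 correlated only weakly between groups (r of 0.0393 to 0.0907). Cell make-up did follow the number, and so did the oligodendrocyte markers in endothelial sums. These markers were at 403 to 545 CPM in libraries numbered 1 and at 926 to 1308 CPM in those numbered 2. All 9 members are named throughout; other genes are named from the lists by the size of their difference among those called, at most 4 per list. The scripts were tested on simulated data. Some values are not reported here.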

Additional observations from a re-analysis of the deposited data

How the results depend on the processing

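Of the members' log2 differences under other settings, 752 kept their direction and their side of the threshold, 22 lost a call, 11 gained one and 34 changed sign without having passed the test, and the cause was not tested. No member passed in either endothelial group comparison under any setting run. The number of members called was 5 to 7 for endothelial, 5 to 9 for oligodendrocyte and 8 for neuroblast against astroglial sums, and 4 to 6 for mural against endothelial sums. For choroid plexus against astroglial sums it was 4, but 2 with DESeq2, 2 without the low-count filter, 2 without barcode filters, 3 with RLE scaling and 3 without the library block. For cycling against non-cycling barcodes it was 1, and 0 with the doubled cycling threshold.

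Sign changes in ECiKO against control were as follows. Cdkn1c, at -0.00, was 0.00223 with RLE scaling, 0.12 under the stricter gate, 0.0099 with the replicate block, 0.00236 in a fit of only the 2 groups and 0.19 at a depth floor of 2000 UMIs, and -2.03 to 0.52 when single libraries were left out. Btg2 was 0.24 under the stricter gate and 0.17 at the depth floor, and -1.68 to 0.20 when libraries were left out. Nfix was -0.86 to 0.34 when libraries were left out. In GlastiKO against control, leaving out libraries gave -0.013 to 0.83 for Cdkn1a, -0.0097 to 0.37 for Cdkn1b, -1.28 to 0.24 for Cdkn2d, -0.036 to 0.12 for Rbl2 and -0.48 to 0.21 for Nfix. Without barcodes positive for Plvap, Igfbp3 or Esm1, Cdkn2d was 0.066. Rbl2 was 0.047 with DESeq2, 0.0048 with RLE scaling, 0.012 without barcode filters and 0.17 at the depth floor.

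Between classes, Btg1 in endothelial against astroglial sums ran from -0.12 to 0.93 without single libraries. In mural against endothelial sums Cdkn1b was -0.069 without the low-count filter, -0.31 under the stricter gate and -0.077 to 0.17 without single libraries; Cdkn1c ran from -0.069 to 0.46 and Rbl2 was 0.18 under the stricter gate. Btg2 in cycling against non-cycling barcodes was 0.23 with at least 2 barcodes an arm and 0.099 without the low-count filter.

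Counts of all genes called moved more. In ECiKO against control they were 19, and 2 with DESeq2, 1 without Plvap-positive barcodes, 29 with the replicate block, 29 at the depth floor and 5 to 34 without single libraries (5 without ECiKO replicate 1, 34 without ECiKO replicate 2, 8 without control replicate 1, 31 without GlastiKO replicate 2). In GlastiKO against control they were 26, and 2 with DESeq2, 10 without Plvap-positive barcodes, 39 with the replicate block and 6 to 34 without single libraries (6 without control replicate 1, 12 without GlastiKO replicate 1, 13 without ECiKO replicate 1). The differences between libraries numbered 1 and 2 in endothelial sums correlated over genes at 0.0907 (GlastiKO and control), 0.0393 (ECiKO and control) and 0.0569 (ECiKO and GlastiKO). The numbers were therefore not taken as pairs, although same-numbered libraries were alike in cell make-up. Cycling calls were 583, and 71 with DESeq2, 355 without the low-count filter, 344 without barcode filters and 263 with at least 2 barcodes an arm. Endothelial against astroglial calls were 4480, and 2923 without GlastiKO replicate 2.

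Settings with Plvap-positive barcodes left out, the depth floor and other arm minimums were chosen after seeing the data. Leaving out a library was not possible for the cycling comparison, nor for neuroblast or choroid plexus sums without ECiKO or GlastiKO replicate 2, and the depth floor left too few neuroblast barcodes. Depth limits ECiKO replicate 2 most, where 3 counts were 78.5 CPM in endothelial sums, and the comparisons of glia between groups rest on 1 library a group.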
